A study of Taeniopygia guttata with 22 samples.

Results

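Genes of vesicle release were followed in the robust nucleus of the arcopallium (RA) of zebra finches. RA is the forebrain nucleus that drives the song motor neurons. The genes are the synaptotagmin genes SYT1, SYT2, SYT4 and SYT7, the vesicle SNARE gene VAMP1 and the complexin genes CPLX1 and CPLX2. Rows were found by NCBI gene ID, and 7 of the 8 named members had a row, among 21786 genes with an ID. VAMP2 had none and was not analysed here. All 7 passed the filter on low counts and were among the 16004 genes tested. The family was chosen by symbol with earlier results of these counts known, the 50-day sex differences of VAMP1 and CPLX1 among them. The calls below therefore set each difference against the spread between libraries and are not independent evidence, and nothing is read from the share of members called.

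A synaptic vesicle fuses when its VAMP protein zips into a complex with syntaxin and SNAP25 on the cell membrane. Complexins bind that complex and hold or promote fusion, and many synaptotagmins sense the calcium that triggers it. In rodents SYT1 is the usual fast sensor of forebrain synapses, while SYT2 and VAMP1 prevail at fast synapses of the hindbrain, spinal cord and neuromuscular junction. RA neurons of adult male zebra finches fire brief, precisely timed bursts during song.

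The RNA came from RA cut by laser from stained frozen sections, and each library was amplified from 1 ng of RNA. There were 22 libraries, from 5 females and 5 males at 20 days after hatching, and from 7 females and 5 males at 50 days. Birds were killed soon after lights-on and none had been seen singing, per the labels. The labels give no strain and no treatment. Each library carries its own brain id, but the ids of female 50-day replicates 5 and 6 share a number. These may therefore come from 1 bird, and p-values at 50 days may be too small. The ids of female 50-day replicates 1 to 5 end in a letter, R or W, which no other id does. What the letters stand for is not known here, and any difference they mark was not tested.

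Total counts per library ran from 16.17 M to 65 M (M, 1000000 counts), with 13 libraries under 22.35 M and 9 above 49.12 M. The 20-day females were all deep and the 20-day males all shallow, and at that age sex and depth cannot be told apart. Among 50-day libraries, 1 of 7 from females and 3 of 5 from males were deep. Levels are given in CPM, counts per 1000000 counted, after TMM scaling, the trimmed mean of M-values. Changes are given as log2 fold changes fitted by edgeR, many of them with a standard error (SE). A gene was called at an adjusted p under 0.05 over all genes tested. Markers of glutamatergic projection neurons (SLC17A6, NEFL, NEFM and NEFH) summed to 1882 to 2983 CPM across the libraries, and none of the fixed markers with a row was at 0 throughout a group.

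At 20 days no member was called between the sexes, and at 50 days 6 of 7 were. VAMP1, SYT2 and CPLX1 were higher in 50-day males, SYT1, SYT4 and SYT7 were lower, and CPLX2 was not called. Among all genes tested, 2.11% were called by sex at 20 days and 33.1% at 50 days. The count at 20 days was 0 of 7 with edgeR, DESeq2 and limma voom, with 1 member, SYT2, at an unadjusted p under 0.05. From 20 to 50 days 6 members changed in males, against 26.7% of all genes, and 4 in females, against 14.9%. The age change differed between the sexes at 5 members, against 12.3% of all genes. The male minus the female change was positive for VAMP1 and CPLX1 (5.75% of all genes were called so) and negative for SYT1, SYT4 and SYT7 (6.57%). These comparisons share libraries with one another, so their results are not separate observations. In bulk RNA, fewer cells of a type and less RNA per cell cannot be told apart.

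**Figure D1:**
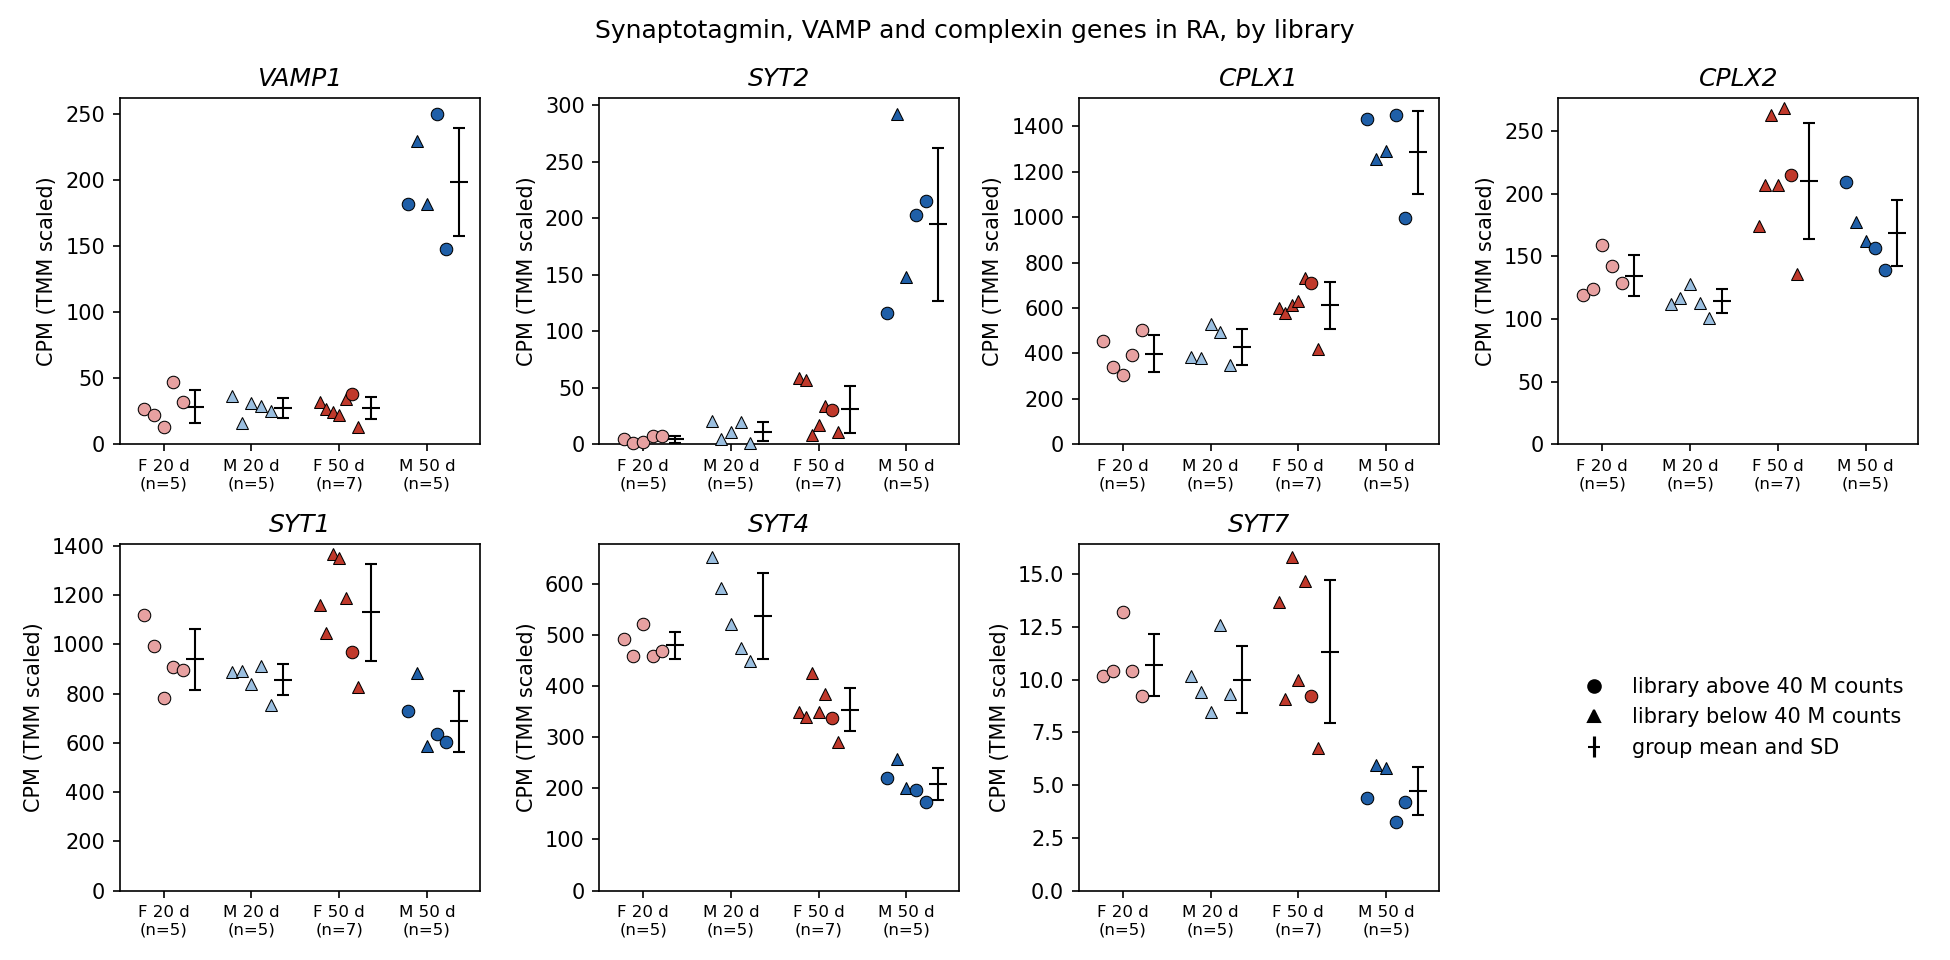
Level of each gene in every library, in CPM scaled by TMM, by sex (F, M) and age in days (d). Points are libraries (circles above, triangles below 40 M counts) and bars are the group mean and SD. VAMP1, SYT2 and CPLX1 stand apart in 50-day males, while SYT4 and SYT7 are lowest there.

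VAMP1 encodes a vesicle SNARE that supports fast release at the neuromuscular junction in mice. In 50-day males its level was 182, 229, 182, 250 and 148 CPM in replicates 1 to 5. In 50-day females it ran from 13.3 to 37.9 CPM with a median of 26.4. At 20 days females read 26.4, 22.5, 13.3, 47.1 and 32.2 CPM, and males 36.5, 16.4, 31.0, 28.7 and 25.2 CPM. The lowest 50-day male library thus stood above every library of the other groups, which overlapped one another.

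The 50-day group means of VAMP1 were 198 ± 40.7 CPM for males (SD, n = 5) and 27.2 ± 8.31 CPM for females (SD, n = 7). The difference was 7.29-fold (log2 fold change 2.87, SE 0.26, adjusted p = 2.45e-08). In males VAMP1 rose 7.18-fold with age (log2 fold change 2.84, SE 0.30, adjusted p = 2.94e-07). In females the age difference was -0.06 on the log2 scale (SE 0.26, adjusted p = 0.914), with a 95% interval, unadjusted, of -0.56 to 0.44. The age changes differed by 2.90 (SE 0.38, adjusted p = 8.25e-05). VAMP1 was the 1 member whose interaction was still called with the depth set as a model term (2.63, SE 0.55, adjusted p = 0.0403).

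SYT2 encodes a close relative of SYT1 and is the fast calcium sensor of many hindbrain and fast-spiking neurons in mice. Its level in 50-day males was 116, 292, 148, 203 and 215 CPM in replicates 1 to 5. In 50-day females it ran from 8.16 to 59.1 CPM with a median of 30.0. At 20 days it was low and scattered, with 4.70, 0.945, 1.92, 6.88 and 7.68 CPM in females and 20.3, 4.42, 11.1, 19.4 and 0.906 CPM in males. All 50-day males lay above all other libraries, and 50-day females lay above 20-day females but overlapped 20-day males.

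SYT2 had the widest spread of the members within groups. The coefficient of variation was 67.0% in females at either age, 77.3% in 20-day males and 34.8% in 50-day males. Among 20-day males the highest library was 22.4 times the lowest, which held 16 counts. SYT2 was 6.32-fold higher in males at 50 days (log2 fold change 2.66, SE 0.56, adjusted p = 0.000759). It rose with age in both sexes, by 4.10 on the log2 scale in males (SE 0.68, adjusted p = 8.88e-05) and by 2.79 in females (SE 0.62, adjusted p = 0.00401). The call in females was lost with the depth term (2.62, SE 0.78, adjusted p = 0.0560). A larger rise in males was not shown, since the interaction was 1.31 (SE 0.83, adjusted p = 0.334; 95% interval -0.31 to 2.94). The sex difference at 20 days was 1.34 (SE 0.63, adjusted p = 0.480), with an unadjusted 95% interval of 0.11 to 2.58. Sex and depth cannot be told apart at that age.

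CPLX1 encodes the main complexin of fast synapses and, by the bTaeGut7.mat assembly table, lies on Z, the chromosome that male birds carry as a pair and females singly. Its level in 50-day males was 1433, 1256, 1292, 1449 and 998 CPM in replicates 1 to 5. In 50-day females it ran from 419 to 733 CPM with a median of 612. At 20 days females read 455, 342, 304, 393 and 505 CPM and males 385, 382, 531, 496 and 348 CPM. The 50-day males did not overlap any other group, while 50-day and 20-day females did overlap.

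CPLX1 was 2.10-fold higher in males at 50 days (log2 fold change 1.07, SE 0.14, adjusted p = 3.75e-06). It rose in both sexes, 3.00-fold in males (log2 fold change 1.59, SE 0.16, adjusted p = 1.6e-07) and 1.53-fold in females (log2 fold change 0.61, SE 0.14, adjusted p = 0.00555). The rise was larger in males by 0.97 (SE 0.21, adjusted p = 0.00398). That call was lost with the depth term (0.80, SE 0.32, adjusted p = 0.308).

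CPLX2 encodes the other major brain complexin and lies on an autosome. It read 209, 177, 162, 157 and 139 CPM in 50-day males, and 136 to 268 CPM with a median of 207 in 50-day females. Its mean at 20 days was 114 ± 9.80 CPM for males (SD, n = 5) and 135 ± 15.8 CPM for females (SD, n = 5). CPLX2 rose with age in males (log2 fold change 0.56, SE 0.14, adjusted p = 0.00522). In females the rise was 0.64 (SE 0.13, adjusted p = 0.00256). That call was lost with the depth term (0.65, SE 0.19, adjusted p = 0.0535). The interaction was -0.08 (SE 0.20, adjusted p = 0.845), with an interval of -0.46 to 0.31.

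The sexes overlapped at 50 days for CPLX2, and the difference of -0.32 (SE 0.13) missed the threshold at an adjusted p of 0.0738. Without female 50-day replicate 7 it was -0.40 (adjusted p = 0.0102). It was also called without female replicate 1 (adjusted p = 0.0489) or male replicate 1 (0.0306) of that age, with limma voom (0.0486) and with scaling to total counts (0.0255).

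SYT1 encodes the calcium sensor of fast, synchronous release. In 50-day males its level was 728, 883, 585, 634 and 604 CPM in replicates 1 to 5. In 50-day females it ran from 825 to 1366 CPM with a median of 1159. The means at 20 days were 938 ± 125 CPM for females (SD, n = 5) and 856 ± 64.0 CPM for males (SD, n = 5). Male replicate 2, at 883 CPM, lay above female replicate 7, at 825 CPM, and the other 50-day males lay below every 50-day female.

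SYT1 was 1.64-fold lower in males at 50 days (log2 fold change -0.72, SE 0.12, adjusted p = 8.81e-05). Neither age change was called, with -0.32 in males (SE 0.13, adjusted p = 0.0749) and 0.27 in females (SE 0.12, adjusted p = 0.144). Without female 50-day replicate 7 or male 50-day replicate 2 the change in males was called (adjusted p = 0.0474 and 0.0161), as it was with limma voom (0.0377). Males and females differed in their age change by -0.58 (SE 0.18, adjusted p = 0.0328), but this was the least stable of the calls. Its adjusted p passed 0.05 with no filter on low counts (0.0531) and with the depth term (-0.29, SE 0.27, adjusted p = 0.717). It also passed 0.05 in 10 of 22 fits that left out 1 library (0.0519 to 0.0639). Those fits left out female 20-day replicates 3, 4 and 5, male 20-day replicates 1, 2 and 4, female 50-day replicate 3, and male 50-day replicates 3, 4 and 5.

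SYT7 encodes a slower sensor with high calcium affinity, tied in rodents to asynchronous release and to facilitation. It was read at low levels, with 4.39, 5.94, 5.80, 3.24 and 4.21 CPM in 50-day males. The 50-day females ran from 6.78 to 15.8 CPM with a median of 10. The means at 20 days were 10.7 ± 1.46 CPM for females (SD, n = 5) and 10 ± 1.57 CPM for males (SD, n = 5). Every 50-day male lay below every other library.

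The sex difference of SYT7 at 50 days was 2.41-fold (log2 fold change -1.27, SE 0.21, adjusted p = 5.69e-05). SYT7 fell by 1.09 with age in males (SE 0.22, adjusted p = 0.000665). In females the age difference was 0.08 (SE 0.20, adjusted p = 0.834), and the interaction was -1.18 (SE 0.30, adjusted p = 0.0120). With the depth term the interaction was -0.50 (SE 0.42, adjusted p = 0.672).

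SYT4 encodes a synaptotagmin found on dense-core and other vesicles of neurons, whose first calcium-binding domain is altered in rodents. It is the other Z-linked member. In 50-day males it read 220, 257, 201, 196 and 173 CPM, and in 50-day females 290 to 426 CPM with a median of 350. At 20 days females read 492, 459, 521, 460 and 469 CPM and males 654, 592, 521, 474 and 450 CPM. The 20-day sexes overlapped, 50-day females lay below all 20-day libraries, and 50-day males lay lowest of all.

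SYT4 fell in both sexes, by 1.36 on the log2 scale in males (SE 0.11, adjusted p = 1.67e-08) and by 0.44 in females (SE 0.10, adjusted p = 0.00510). The fall was larger in males by 0.92 (interaction -0.92, SE 0.15, adjusted p = 0.000438). With the depth term the interaction was -0.69 (SE 0.23, adjusted p = 0.196), and its call was lost. At 50 days it was 1.69-fold lower in males (log2 fold change -0.76, SE 0.10, adjusted p = 7.39e-06).

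**Figure D2:**
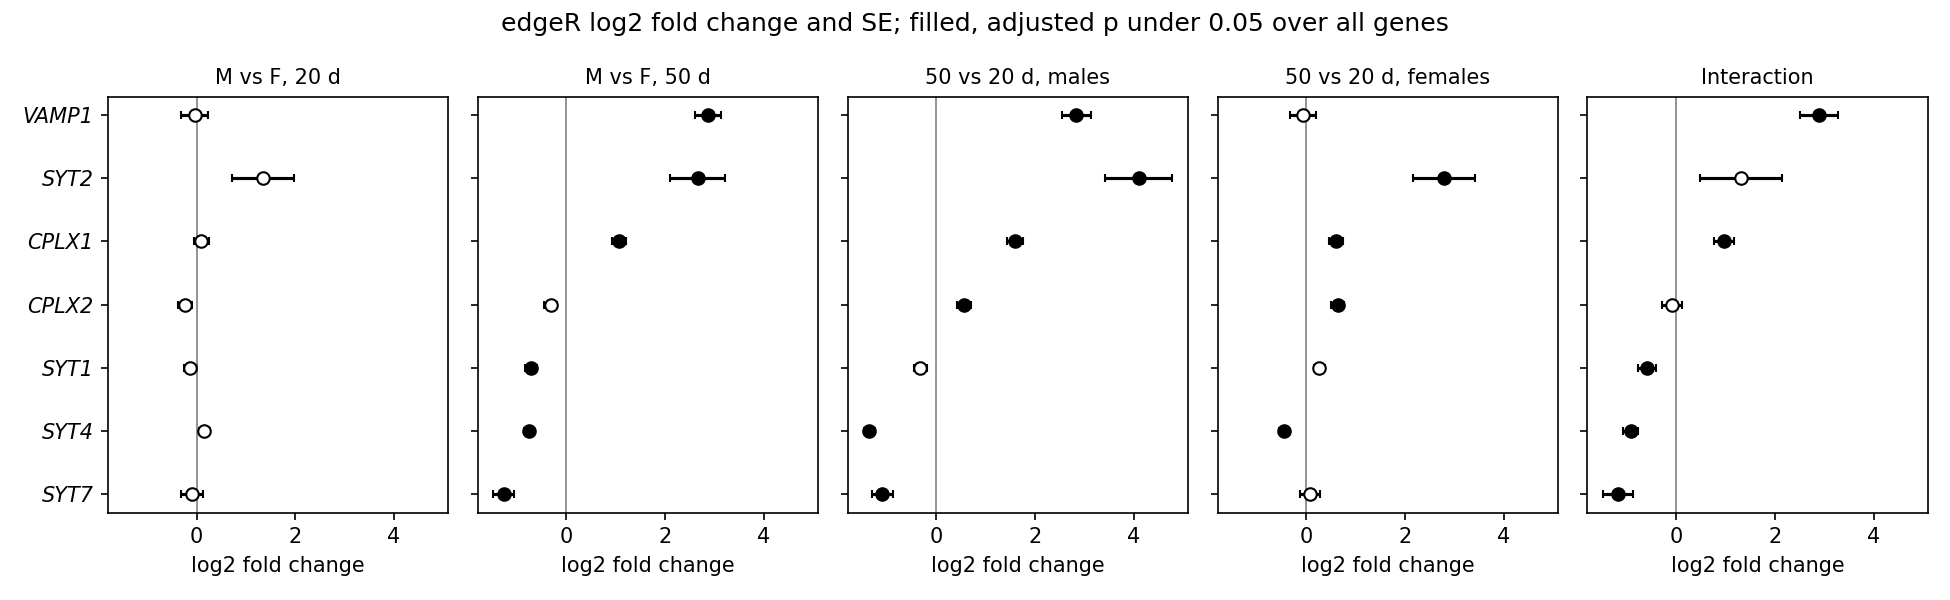
Fitted log2 fold change of each gene (x axis) in the 5 comparisons, with SE bars, between males (M) and females (F) and between 20 and 50 days (d). Filled points were called at an adjusted p under 0.05. All points at 20 days are open, and at 50 days VAMP1 (2.87), SYT2 (2.66) and CPLX1 (1.07) lie right of 0.

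At 50 days the groups of 5 of the 7 members did not overlap between the sexes (VAMP1, SYT2, CPLX1, SYT4 and SYT7), against 16.1% of all genes tested. With age, 6 members did not overlap in males (18.1% of all genes) and 2, SYT2 and SYT4, in females (7.46%). At 20 days all 7 overlapped between the sexes, where 3.61% of all genes did not.

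CPLX1 and SYT4 were set beside the other genes of their chromosome. Of 658 Z-linked genes tested, the median male-to-female log2 fold change was 0.69 at 20 days, with quartiles of 0.35 and 0.95. CPLX1 stood at 0.10 (SE 0.15, interval -0.20 to 0.40) and SYT4 at 0.16 (SE 0.11, interval -0.05 to 0.38), above 65 and 88 of those genes. At 50 days the Z-linked median was 0.67, with quartiles of 0.22 and 1.07. CPLX1, at 1.07, then lay at the upper quartile, above 491 of the 658, and SYT4, at -0.76, above 17. The 2 members on the chromosome thus lay close together at 20 days and on opposite sides of the Z-linked median at 50 days.

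**Figure D3:**
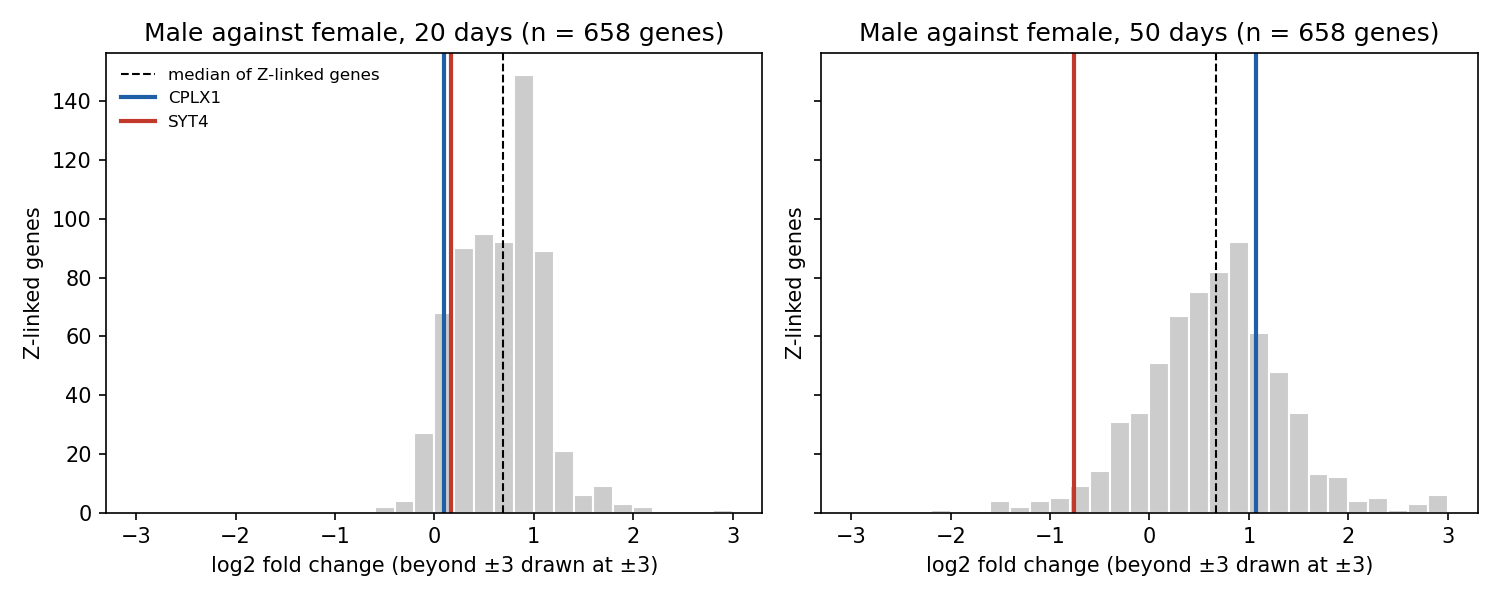
Male-to-female log2 fold changes (x axis) of the 658 tested Z-linked genes (grey histogram, y axis in genes) at 20 and 50 days, with their median dashed and CPLX1 and SYT4 as coloured lines. Both lines lie below the median at 20 days, and they part to 1.07 and -0.76 at 50 days.

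Ratios of paired family members within a library do not depend on the scaling between libraries. They are ratios of counts and carry the lengths of the transcripts, so only their changes between groups can be read. The log2 ratio of SYT2 to SYT1 counts was -8.10 ± 1.30 (SD, n = 5) in 20-day females, -6.92 ± 1.79 (SD, n = 5) in 20-day males and -5.51 ± 1.17 (SD, n = 7) in 50-day females. In 50-day males it was -1.87 ± 0.47 (SD, n = 5), and the lowest male library (-2.65) lay above the highest 50-day female one (-4.21). Between 20 and 50 days the mean moved by 5.04 in males and 2.59 in females. The 20-day means rest partly on single low libraries. Without male replicate 5 (-9.70) the male mean was -6.22, and without female replicate 2 (-10.03) the female mean was -7.62. The ratios were not tested, and the edgeR interaction of SYT2 itself was not called (1.31, SE 0.83, adjusted p = 0.334).

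For CPLX1 over CPLX2 the log2 count ratio was 1.55 ± 0.42 (SD, n = 5) in 20-day and 1.56 ± 0.19 (SD, n = 7) in 50-day females. It went from 1.89 ± 0.19 (SD, n = 5) to 2.93 ± 0.18 (SD, n = 5) in males. The lowest 50-day male library (2.78) lay above the highest library of any other group (2.13). In females the complexin genes thus kept a mean ratio while both were higher at 50 days, and in males CPLX1 gained 1.04 on CPLX2.

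**Figure D4:**
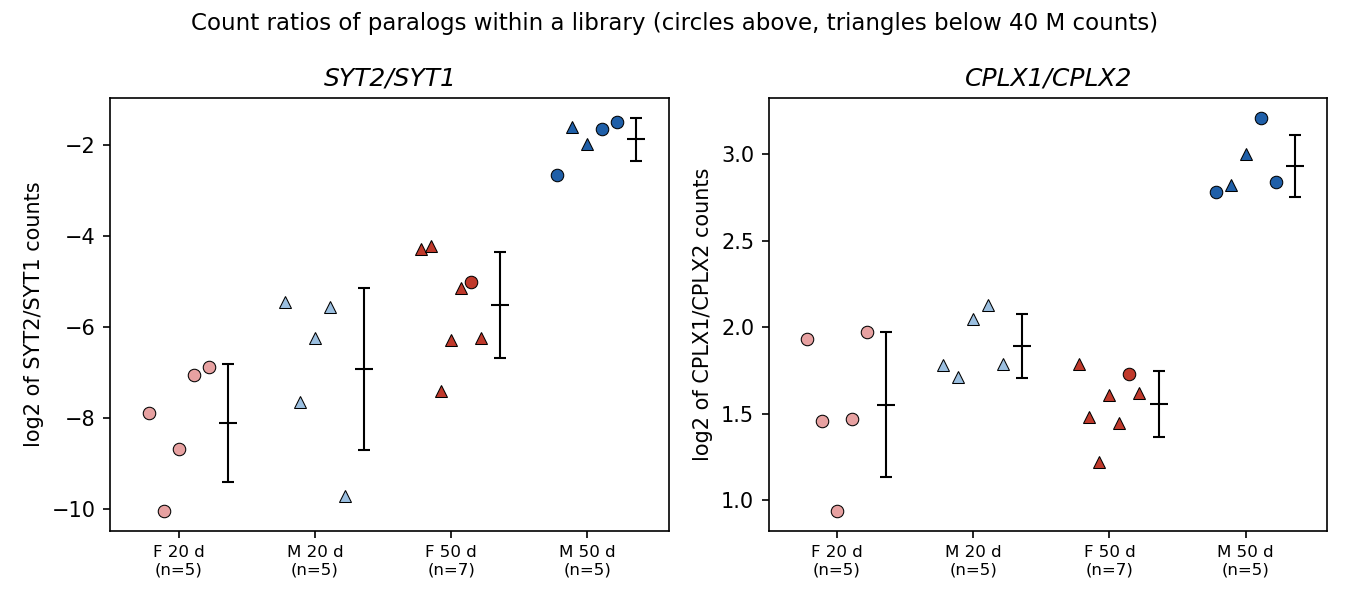
Log2 ratio of counts of SYT2 to SYT1 and of CPLX1 to CPLX2 (y axes) in each library, by sex and age, with group mean and SD. The 50-day male libraries lie above all others, at -2.65 to -1.49 for the synaptotagmins and 2.78 to 3.21 for the complexins.

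Single libraries stood low or high at several members together. Female 50-day replicate 7 was the lowest of its group at 6 of 7 members, all but SYT2. It also had the highest summed level of microglial markers in its group (152 CPM, against 71.1 to 112 in the others). The same held for its oligodendrocyte markers (5665 CPM, against 2286 to 3750), but not for its astrocyte markers (3288 CPM, against 3209 to 3702). Its sums of projection neuron markers (1882 CPM, against 1926 to 2131) and interneuron markers (956 CPM, against 1031 to 1255) were the lowest. Its summed neuronal markers (SNAP25, RBFOX3, ELAVL4 and TUBB3) were the lowest, at 4691 CPM against 5589 to 6570. In 50-day females SNAP25, itself a release gene, averaged 4504 CPM of a mean sum of 5690 CPM. Male 20-day replicate 5 was lowest of its group at 5 members, and male 50-day replicate 5 at 4. The neuronal sum was lowest of its group in the former (4018 CPM) but not in the latter (4507 CPM, against 4452 CPM in replicate 1). Neither had the highest microglial sum of its group (56.3 CPM against up to 68.2, and 62.7 CPM against up to 92.9). Male 20-day replicate 5 did have the highest astrocyte sum of its group (5315 CPM, against 3858 to 5130). Male 50-day replicate 5 did not (5173 CPM, against up to 6686). The part of cell makeup in these values was not tested.

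Markers of other cell types moved with sex and age as well. At 50 days summed GABAergic interneuron markers (5 of 5 genes) ran from 459 to 786 CPM in males and 956 to 1255 CPM in females. Summed astrocyte markers (4 of 5 genes had a row) ran from 5118 to 6686 CPM and 3209 to 3702 CPM. SLC1A2 (0.82, adjusted p = 3.7e-05), AQP4 (0.65, adjusted p = 0.00012) and SLC1A3 (0.55, adjusted p = 0.000925) were called higher in 50-day males. GJA1 was not called (0.23, adjusted p = 0.18). The oligodendrocyte gene MBP, for myelin basic protein, averaged 371 and 443 CPM in 20-day females and males, 2750 CPM in 50-day females and 6838 CPM in 50-day males. MBP rose with age in males (log2 fold change 3.95, adjusted p = 5.61e-05) and females (2.89, adjusted p = 0.00166), and its sex difference at 50 days was 1.31 (adjusted p = 0.0515). Summed projection neuron markers were 2377 to 2983 CPM in 50-day males and 1882 to 2131 CPM in 50-day females. The neurofilament genes NEFM (0.87, adjusted p = 3.74e-05) and NEFL (0.48, adjusted p = 0.000491) of this list were higher in males at 50 days, while NEFH (0.24, adjusted p = 0.0586) and the vesicular glutamate transporter gene SLC17A6 (0.05, adjusted p = 0.784) were not called.

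The general neuronal markers summed to 4452 to 5768 CPM in 50-day males and 4691 to 6570 CPM in 50-day females. Of these 4 genes TUBB3 (-1.11, adjusted p = 2.95e-05), RBFOX3 (-0.46, adjusted p = 0.000855) and ELAVL4 (-0.37, adjusted p = 0.00043) were lower in males at 50 days, in the direction of SYT1, SYT4 and SYT7, and SNAP25 was not called (-0.13, adjusted p = 0.242). TUBB3 (-1.42, adjusted p = 4.98e-06) and ELAVL4 (-0.41, adjusted p = 0.000405) also fell with age in males. The part of these markers in the members' differences was not tested.

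Summed endothelial markers (4 of 4 genes had a row) were higher in 50-day males without overlap, at 349 to 514 CPM against 173 to 267 CPM in 50-day females. CLDN5 (0.97, adjusted p = 8.48e-07), CDH5 (1.27, adjusted p = 0.000272) and PECAM1 (0.50, adjusted p = 0.0488) were called higher. FLT1 was not called (0.14, adjusted p = 0.445). Microglial markers (5 of 5) overlapped at 54.1 to 92.9 CPM and 71.1 to 152 CPM. Summed oligodendrocyte precursor markers (2 of 2 had a row) were 25.1 to 48.4 CPM and 55.8 to 84.0 CPM. Of these PDGFRA was lower in males (-0.93, adjusted p = 1.5e-05), while CSPG4, at lower counts, was not called (0.33, adjusted p = 0.393). The red blood cell gene HBAD (1 of 2 listed) ran from 27.4 to 47.8 CPM and 24.1 to 57.7 CPM.

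The sex difference could be taken within 1 depth set at 50 days only. Among shallow libraries (2 males and 6 females) VAMP1 differed by 3.03 (adjusted p = 1.6e-05), CPLX1 by 1.11 (0.000733) and SYT2 by 2.84 (0.0207). SYT4 differed by -0.63 (0.0213), SYT1 by -0.64 (0.0306) and SYT7 by -0.98 (0.0582). The deep libraries were from 3 males and 1 female, and the lone female gives no spread, so only effect sizes are given. There the same genes differed by 2.35, 0.86, 2.57, -0.78, -0.56 and -1.22. These signs matched those over all libraries. With the depth term all 6 calls stood at 50 days, where 4018 of all genes were called in place of 5304. The interaction count then went from 5 to 1 of the members and from 1971 to 72 of all genes.

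Age could be compared within a set in 1 sex each way. Among shallow males (5 at 20 days and 2 at 50) VAMP1 differed by 2.92 (adjusted p = 3.41e-05), SYT2 by 4.30 (0.00340), CPLX1 by 1.59 (8.43e-05) and SYT4 by -1.21 (0.000580). SYT7 (-0.75, adjusted p = 0.169) and CPLX2 (0.59, adjusted p = 0.0779) lost their calls. Among deep females (5 at 20 days and 1 at 50) SYT2 differed by 2.74, CPLX1 by 0.82, CPLX2 by 0.67 and SYT4 by -0.52. Over all libraries these age differences in females were 2.79, 0.61, 0.64 and -0.44. With 1 library at 50 days only effect sizes are given.

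Other genes of the release machinery were taken from a list of 46, of which 38 had a row and 37 were tested. At 50 days 1 was higher and 10 lower in males, with 26 not called, and the list median was -0.11 against -0.03 for all genes. The counts were 3 higher and 10 lower with DESeq2, and 4 and 11 with limma voom. Among all genes 16% were called higher and 17.2% lower. By age, 8 rose and 5 fell in males (12.5% and 14.2% of all genes), and 6 rose and 2 fell in females (6.80% and 8.05%; 9 and 3 with DESeq2). None was called by sex at 20 days with edgeR or DESeq2, 1 was lower with limma voom, and 7 had an unadjusted p under 0.05.

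The other synaptotagmins were lower in males or not called at 50 days, with 5 of 10 lower, against 17.2% of all genes. The mean of SYT17 was 17.8 ± 6.58 CPM over 5 males and 49.8 ± 9.20 CPM over 7 females (SD; log2 fold change -1.49, SE 0.24, adjusted p = 4.33e-05). SYT14 averaged 10.9 and 22.3 CPM (-1.03, adjusted p = 3.97e-05). DOC2B, a high-affinity calcium sensor related to synaptotagmins, averaged 27.1 ± 9.05 CPM over 5 males and 72.1 ± 17.5 CPM over 7 females (SD; log2 fold change -1.41, SE 0.21, adjusted p = 2.1e-05). SYT2 was the 1 synaptotagmin, of the 14 tested here, that was called higher in 50-day males, against 16% of all genes. SYT2 belongs to the members, which were chosen with earlier results known.

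The other VAMP genes (VAMP3, VAMP4, VAMP7 and VAMP8) were not called by sex at 50 days, and CPLX3 was lower in males (-0.54, adjusted p = 0.0332). Of 7 SNARE genes of the cell membrane 1, STX2, was higher (0.35, adjusted p = 0.0323). SNAP25, the partner of the VAMPs at the synapse, stood at 4121 CPM in males and 4504 CPM in females (-0.13, adjusted p = 0.242). None of 3 genes for SNARE disassembly was called, and 3 of 11 priming and SM protein genes were lower. Beside these counts, 16% of all genes were called higher and 17.2% lower at 50 days. The interaction was called, as lower, at 6 of 37 (6.57% of all genes), with DOC2B (-1.28, adjusted p = 0.00794), SYT17 (-1.15, adjusted p = 0.0278) and SYT10 (-2.24, adjusted p = 0.0302) furthest, SYT10 with group means of 0.632 to 1.5 CPM. No gene of the list had a higher interaction with edgeR or DESeq2, 1 did with limma voom, and 1 had an unadjusted p under 0.05.

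**Figure D5:**
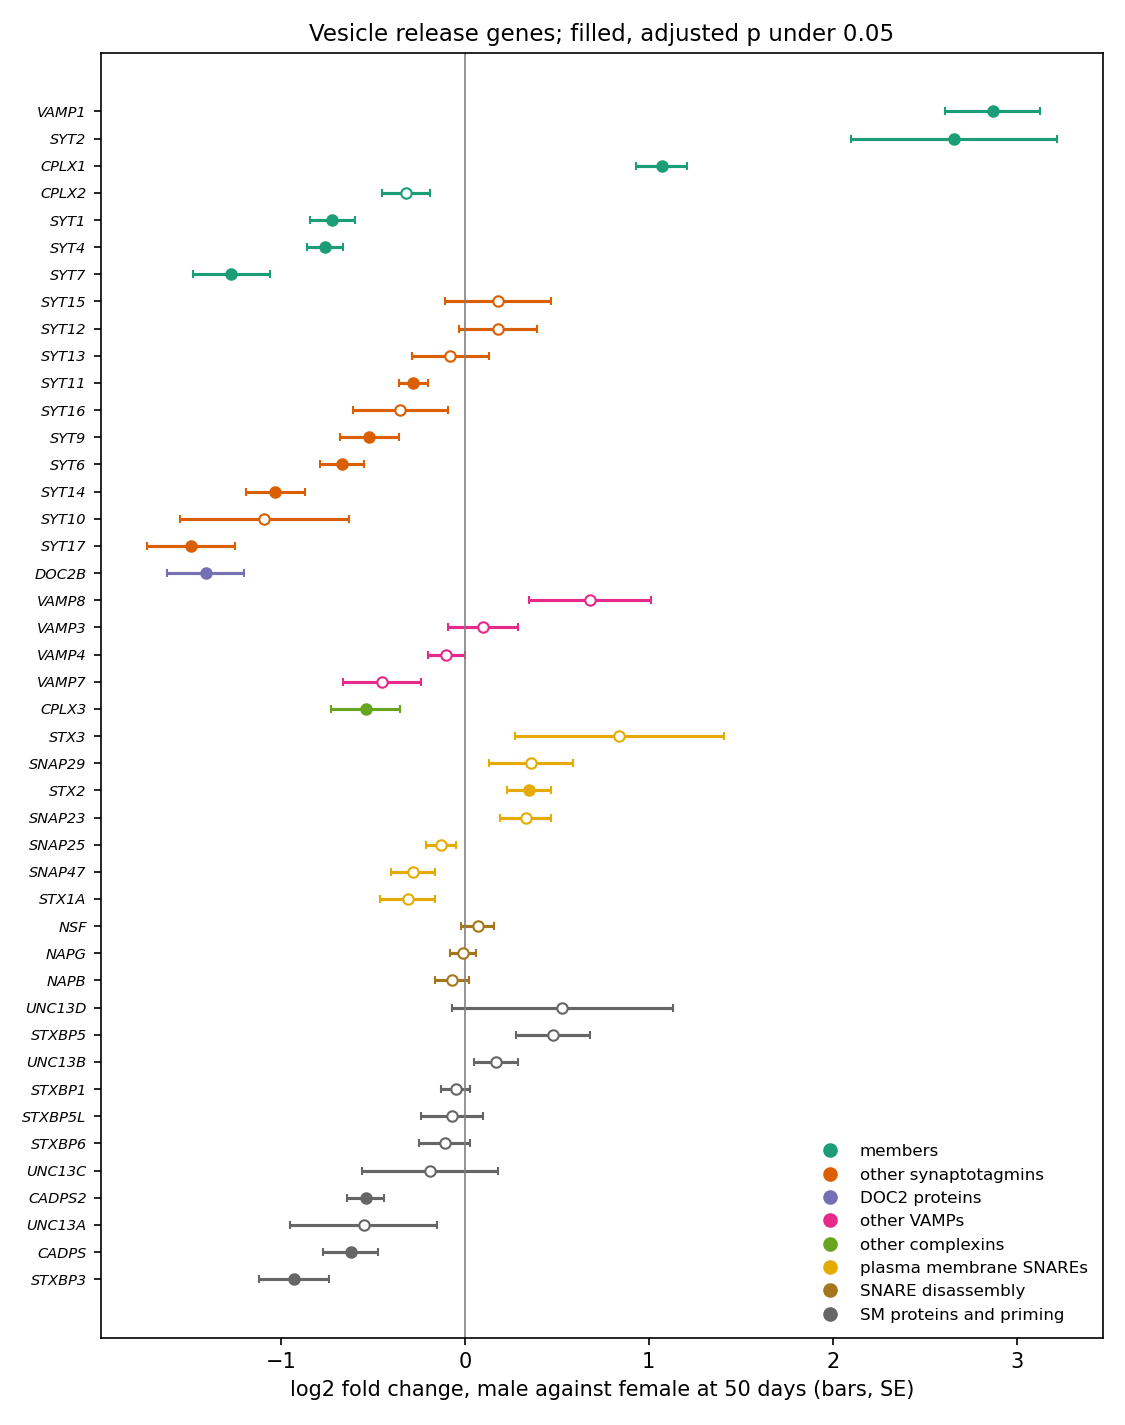
Male-to-female log2 fold change at 50 days (x axis, SE bars) of the members and of the 37 other release genes tested, coloured by subgroup, with filled points called at an adjusted p under 0.05. VAMP1 (2.87), SYT2 (2.66) and CPLX1 (1.07) lie furthest right, and SYT17 (-1.49) and DOC2B (-1.41) furthest left.

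Genes with the most similar profiles were sought among 9740 with a symbol and a mean of at least 5 CPM, by Pearson correlation of log2(CPM + 1) over the 22 libraries. These correlations describe likeness across groups that differ in level, and carry no test. Nearest to VAMP1 were TRPM2 (r = 0.934), a calcium-permeable channel, the homeobox gene SIX2 (0.925) and FNDC4 (0.912), with Spearman's rho of 0.8, 0.574 and 0.624. SIX2 averaged 31 CPM in 50-day males and at most 0.351 CPM in each other group, so it entered the search through 50-day males alone. TRPM2 had group means of 131, 166 and 143 CPM in 20-day females, 20-day males and 50-day females, and 348 CPM in 50-day males. Nearest to SYT2 were the sodium channel subunit SCN4B (r = 0.903), the mitochondrial superoxide dismutase SOD2 (0.896) and the sodium, calcium and potassium exchanger SLC24A2 (0.896). SCN4B averaged 3.31, 3.54 and 7.19 CPM in 20-day females, 20-day males and 50-day females. In 50-day males it averaged 36.1 CPM, and it too entered the search through that group.

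SLC24A2 was also the nearest to CPLX1 (r = 0.943), followed by MYRIP (0.931) and the sialyltransferase ST8SIA5 (0.930). SLC24A2 and ST8SIA5 are Z-linked, as CPLX1 is. SLC24A2 had means of 32.0, 36.4, 71.6 and 191 CPM in 20-day females, 20-day males, 50-day females and 50-day males. The profile of SYT4 was closest to SYN3, which encodes a synapsin (r = 0.958), PLPPR1 (0.955) and GNB1 (0.951). PLPPR1 is Z-linked, as SYT4 is. SYN3 went from 111 and 118 CPM in 20-day females and males to 86.6 and 42.8 CPM at 50 days. Likeness was highest for SYT7 with DAAM1 (0.943), CNTFR (0.937) and PWWP3A (0.935), and for SYT1 with TCF20 (0.905) and USP22 (0.897). CNTFR is Z-linked too, while SYT7 lies on an autosome. For CPLX2 it was highest with CLOCK (0.904), NPTX1 (0.878) and TPPP (0.870).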

How the data were processed

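The authors deposited raw read counts per gene, whole numbers without normalisation, for 22 libraries. Tools named per the submitters' processing notes are STAR 2.6.1 for alignment, Trimmomatic 0.36 and FastQC 0.11.9. What counted the reads, on which build and annotation, and whether by strand, is not given in the sources used here. Libraries were matched to groups by brain id and title. Of 21955 rows 169 had no gene ID and held 0.0344% to 0.0739% of the counts; they were left out.

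Counts were fitted with edgeR 4.0.16 in R 4.3.3 (TMM scaling, filterByExpr by group, a quasi-likelihood model of the 4 groups over all 22 libraries) and adjusted by Benjamini-Hochberg over 16004 genes. The interaction is the male minus the female age change. The SE was derived from the test, as the absolute log2 fold change over the square root of its F statistic. Intervals are the estimate ± 1.96 SE and are approximate. Symbols and chromosomes come from the bTaeGut7.mat RefSeq table, which matched 16205 IDs and may not be the assembly of the alignment. Sequences are not printed here. Alternatives were DESeq2 1.42.0, limma 3.58.1 voom with quality weights, other scalings and filters, a replicate block, a depth term, fits of the groups compared, a stricter threshold, summing female 50-day replicates 5 and 6 and leaving out each library. Fits of the shallow (under 40 M counts) or deep libraries alone were added after seeing the data. The 50-day sex comparison was also run on simulated counts in which only 50-day males were changed. No depth or batch effect was simulated, and the other comparisons and the depth term were not tried in this way.

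The members and gene lists were chosen with earlier results of these data known. Named are all members, the called release genes with the 3 largest rises and falls at 50 days and in the interaction, and the 3 genes most like each member, of which 1 is not reported here, nor is 1 oligodendrocyte marker. SNAP25, CPLX3 and the other VAMP genes were named after their values were seen. The planned VAMP1 to VAMP2 ratio had no VAMP2 row, and promoters were not searched. PCR copies were not removed by molecular identifiers.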

Additional observations from a re-analysis of the deposited data

Results flagged for a closer look

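The age change from 20 to 50 days differed between the sexes, by the interaction term of the edgeR model, at 5 of the 7 members, against 12.3% of all genes. On the log2 scale the male minus the female change was 2.90 for VAMP1, 0.97 for CPLX1, -0.58 for SYT1, -0.92 for SYT4 and -1.18 for SYT7. Of these VAMP1 and SYT7 were called by age in males and not in females, CPLX1 and SYT4 moved the same way in both sexes, and the SYT1 value rests on age differences of opposite sign that were not called singly. At 20 days every female library was deep and every male one shallow. With a depth term the interaction was called at 72 of all genes in place of 1971, and at 1 of the 5 members, VAMP1. The part of depth in the others was not tested further and cannot be told apart from sex at that age. Over 36 sets of values (members and count ratios by group) no library lay far from the others of its group, where chance flags about 1 in 20.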

How the results depend on the processing

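At an adjusted p under 0.01 the interaction was called at 3 members in place of 5, and at 755 of all 16004 genes in place of 1971. With the depth term it was called at 1 member and 72 of all genes. The female age change was then called at 2 members in place of 4 (CPLX1 and SYT4), and at 744 of all genes in place of 2378. Fits of deep libraries alone hold 1 female of 50 days, so their counts of called members are not read. In fits without 1 library the count was 0 by sex at 20 days in all 22, 6 to 7 at 50 days, 6 to 7 by age in males, 4 by age in females and 4 to 5 for the interaction. Over all libraries 2.11%, 33.1%, 26.7%, 14.9% and 12.3% of all genes were called in these comparisons. No called member changed sign in any fit run.

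Replicate numbers are shared between groups, but same-numbered libraries did not in general deviate together. Of 30 such pairs 3 correlated over 0.1, the highest at 0.28, and the median was -0.012 against -0.0145 for other pairs. This cannot show whether single pairs share an origin. With the replicate block 0 and 7 members were called by sex at 20 and 50 days. By age 7 were called in males and 5 in females, and 5 were called in the interaction. Of all 16004 genes 314, 4765, 4051, 1716 and 1764 were then called, in that order. Among single members the block added CPLX2 at 50 days (adjusted p = 0.0245) and both age changes of SYT1 (0.0411 and 0.0321). Summing female 50-day replicates 5 and 6 left the counts of members at 0, 6, 6, 4 and 5. Of the 15964 genes then tested 335, 5001, 4232, 2152 and 1797 were called. Scaling to total counts moved the median of all genes to -0.10 in the sex comparison at 50 days, from -0.03. The mean count ratios moved by less than 1 SD with 1 count added. Leaving out 1 library cannot move a group mean by 1 SD, so that limit shows nothing there. For SYT2 over SYT1 in 20-day males the mean was -6.92, and it ran from -7.28 to -6.22 without 1 library. SYT2 at 20 days rests on as few as 16 counts.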
